A study of Mus musculus with 27 samples.

Results

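The 9 transcription factor genes that mark the glutamatergic projection neurons of the cortex and their precursors were followed through every library. They are Neurog2, Neurod1, Neurod2, Neurod6, Eomes, Tbr1, Bcl11a, Bcl11b and Fezf2. They were taken by gene symbol, and each matched 1 row, so they are 9 of 37332 genes in the read-count table and 9 of 53379 in the TPM table. All 9 passed the filter on low counts that left 18226 genes for testing, Neurod2, Neurod6, Fezf2 and Tbr1 through cortical neurons alone and Neurog2 through neurons and progenitors.

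Polyadenylated RNA was sequenced from chromatin-associated (Chr), nucleoplasmic (Nuc) and cytoplasmic (Cyto) fractions of 3 mouse cell types. E14 embryonic stem cells (mESC) grew on gelatin with LIF. Neural progenitors (mNPC) were a line made by the submitters and kept in DMEM/F12 with B27 lacking vitamin A, with EGF and FGF each at 10 ng/ml. Primary cortical neurons (mCtx) were plated on poly-L-lysine and taken after 5 days in culture. None of the groups carried a genetic change or drug named in the labels. Each of the 9 groups had 3 biological replicates, 27 libraries in all. The progenitor line is a single line, and a level in mCtx is an average over the cells present in the cortical cultures. In such bulk samples fewer cells of a type and less RNA per cell cannot be told apart.

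Cortical excitatory neurons are made by a relay of transcription factors. Neurog2, a proneural basic helix-loop-helix (bHLH) factor, acts in dividing progenitors and switches on Neurod1 and the T-box factor Eomes (Tbr2) in intermediate progenitors. Young neurons then carry Neurod2, Neurod6 and the T-box factor Tbr1. The zinc finger factors Fezf2 and Bcl11b (Ctip2), together with Tbr1, divide the deep layers into subcortical and corticothalamic types, while Bcl11a (Ctip1) acts more widely. The bHLH members bind E-boxes as partners of E proteins, and Bcl11a and Bcl11b also belong to BAF chromatin remodelling complexes.

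Library totals ran from 10622897 to 24537526 counts, and no pair of libraries was identical. Levels are given as CPM, the count scaled to the effective library size, with mean ± SD of 3 libraries, and compare a gene with itself. Since each library is scaled to itself, a difference between fractions is one of share within each fraction's RNA. How much of a transcript each fraction of a cell holds was not measured. A gene was called when edgeR's quasi-likelihood test gave an adjusted p below 0.05 and a log2 fold change of at least 1 in size. The marker genes matched the cell labels. Pou5f1 and Zfp42 had 0 counts in every mNPC and mCtx library, summed progenitor markers were highest in mNPC (3176 to 10600 CPM against at most 1884 in mCtx), and Slc17a7, the vesicular glutamate transporter of cortical excitatory cells, had 110 CPM in mCtx cytoplasm against 0.230 in mNPC. The mCtx cultures also held other cells. All 11 markers of inhibitory neurons were detected there and summed to 535 to 574 CPM in cytoplasm, with the neuropeptide gene Sst alone at 294 CPM. The 10 glial markers summed to 331 to 391 CPM and the 9 progenitor markers to 1434 to 1884 CPM. The part of these cells in the mCtx levels below was not tested. The mNPC line itself was far higher in the sum of the glial markers, at 2853 to 2967 CPM in cytoplasm. Most of that sum was Olig1 at 1780 and Olig2 at 890 CPM, while C1qa had 0 counts. Of the 9 glial markers tested, 6 were called lower and 2 higher in mCtx than in mNPC cytoplasm. Of 27 other cortical transcription factors, Emx1 alone had 0 counts in every mNPC group. The 27 summed to 1714 to 2052 CPM in mNPC cytoplasm. There 21 of them were called higher and 3 lower than in mESC cytoplasm. How these traits of the line bear on the mNPC comparisons below was not tested.

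By read counts, Neurod2, Neurod6, Fezf2 and Tbr1 were close to absent from both dividing cell types and abundant in neurons. The 6 groups of mESC and mNPC held 0 to 2 counts of Neurod2, 0 or 1 of Neurod6, 0 to 3 of Fezf2 and 3 to 14 of Tbr1, each summed over 3 libraries. Neurod6, which marks postmitotic pyramidal neurons, had 424, 451 and 490 CPM in the 3 libraries of mCtx cytoplasm. It was at least 7280-fold higher there than in mESC cytoplasm, where it had 0 counts against a floor of 3 counts over the group. Neurod2, which drives later steps of dendrite and synapse formation, reached 254, 321 and 333 CPM in mCtx cytoplasm. That was at least 5630-fold above mNPC cytoplasm and at least 4978-fold above mESC cytoplasm.

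Fezf2, a selector of subcerebral projection neurons, stood at 57.9, 64.1 and 69.1 CPM in mCtx cytoplasm. Against its single count in mNPC cytoplasm the ratio was 3531, with a counting interval of 633 to 139500. Tbr1, which specifies layer 6 corticothalamic neurons, stood at 170, 188 and 202 CPM in mCtx cytoplasm against 0.0430 CPM as the median of 3 libraries in mNPC cytoplasm. By CPM, the lowest mCtx library lay above the highest mESC or mNPC library for each of the 4 genes in each fraction. By TPM, Tbr1 overlapped in chromatin, at 55.8 to 85.6 TPM in mNPC against 83.5 to 84.8 TPM in mCtx. Having entered the test through mCtx alone, these 4 genes had to differ there, so their levels are a description and no test is given.

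The bases just before the RefSeq start sites of 3 of these neuron-restricted genes are shown because members of this family bind E-boxes, written CANNTG, which are in capitals. The window ran 250 bases upstream in GRCm38.p6 and, as printed, was shortened where it entered an annotated gene. The printed windows lie on the minus strand at chr11:98329649-98329895 for Neurod2, chr6:55681264-55681513 for Neurod6 and chr14:12345866-12346115 for Fezf2.
Neurod2: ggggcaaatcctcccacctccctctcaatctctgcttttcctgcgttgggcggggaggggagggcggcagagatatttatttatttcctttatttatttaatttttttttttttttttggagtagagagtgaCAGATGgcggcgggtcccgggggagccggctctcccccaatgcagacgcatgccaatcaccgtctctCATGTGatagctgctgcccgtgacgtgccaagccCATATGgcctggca
Neurod6: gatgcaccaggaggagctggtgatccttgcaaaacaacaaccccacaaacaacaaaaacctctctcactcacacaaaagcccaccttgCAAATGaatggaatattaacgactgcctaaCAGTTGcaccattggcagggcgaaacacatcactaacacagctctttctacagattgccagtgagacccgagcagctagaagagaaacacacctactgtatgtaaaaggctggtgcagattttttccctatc
Fezf2: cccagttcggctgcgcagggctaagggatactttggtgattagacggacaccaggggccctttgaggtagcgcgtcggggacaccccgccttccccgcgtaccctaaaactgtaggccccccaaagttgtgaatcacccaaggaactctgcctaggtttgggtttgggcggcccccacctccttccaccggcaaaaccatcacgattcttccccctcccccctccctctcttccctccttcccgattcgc
Neurod2 held 3 E-boxes, Neurod6 held 2 and Fezf2 held 0 in its window. Of 32851 promoters with windows of 250 bases, 66.2% hold at least 1 CANNTG, so a match is common. CANNTG reads the same class of site on both strands. The form CAGATG, or CATCTG on the other strand, is a favoured site of NeuroD factors and is a subset of CANNTG. It occurred in the window of Neurod2 alone among the 9 genes, and 14.4% of all windows hold it. The other 6 genes held 1 E-box (Neurod1, Tbr1 and Bcl11a) or none (Neurog2, Eomes and Bcl11b). In mm10 the genes themselves lie at chr11:98325415-98329648 (Neurod2, minus strand), chr6:55677818-55681263 (Neurod6, minus), chr14:12341892-12345865 (Fezf2, minus), chr2:61802930-61814114 (Tbr1, plus) and chr2:79452521-79456751 (Neurod1, minus). Neurog2 lies at chr3:127633136-127635631 (plus) and Eomes at chr9:118478212-118486132 (plus). Bcl11a at chr11:24078056-24174123 (plus) and Bcl11b at chr12:107910403-108003602 (minus) are far longer, at 96068 and 93200 bases, most of it intron. The windows differed widely in base composition, from 44.8% G and C in Bcl11b to 67.6% in Neurod1, where the median of all windows is 52.4%. Motif counts and base composition use the full 250 bases before the RefSeq start. These lie partly inside the gene interval given here for Neurod1, Neurod2 and Bcl11b, and wholly inside it for Tbr1 and Bcl11a.

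**Figure D1:**
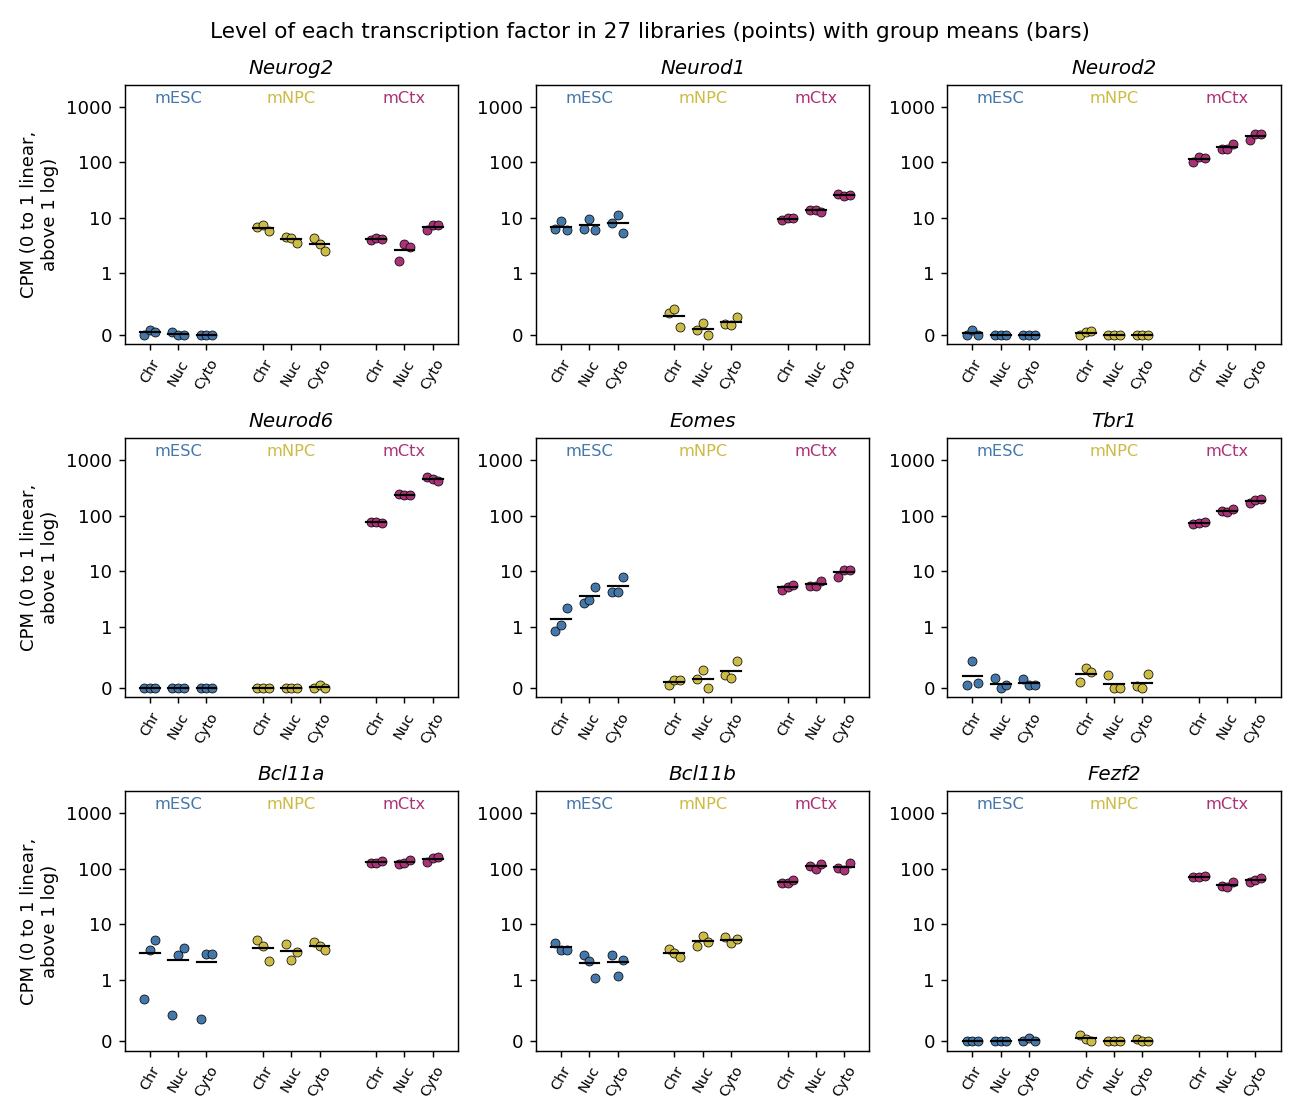
Level of each of the 9 genes in CPM (linear from 0 to 1, logarithmic above), with 1 point for each of 27 libraries and a bar at each group mean. Neurod2, Neurod6, Tbr1 and Fezf2 lie near 0 outside mCtx, Neurod1 and Eomes drop in mNPC alone, and Neurog2 is near 0 in mESC alone.

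Neurod1 and Eomes were present in stem cells and neurons and low in the progenitor line. Neurod1, which acts from the last division into early neuronal differentiation, had 5.30, 8.03 and 11.5 CPM in mESC cytoplasm, 0.165, 0.172 and 0.298 CPM in mNPC cytoplasm and 24.6, 25.5 and 26.5 CPM in mCtx cytoplasm. The 3 groups did not overlap. The log2 fold change of mNPC against mESC was -5.31 ± 0.37 (SE) in cytoplasm (adjusted p = 8.2e-13, edgeR) and -4.43 ± 0.34 in chromatin (adjusted p = 7.5e-12, edgeR). Only 3 counts remained in mNPC nucleoplasm, where mESC was higher by a ratio of 80.6 (counting interval 27.4 to 393).

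Neurod1 was not called between mCtx and mESC chromatin, where its mean was 9.67 ± 0.53 CPM in neurons and 6.99 ± 1.44 CPM in stem cells. That log2 fold change was 0.47 ± 0.24, with a 95% interval of -0.04 to 0.97 (adjusted p = 0.0752, edgeR). In nucleoplasm it was 0.89 ± 0.24 (adjusted p = 0.00159, edgeR), under the fold required except without replicate 2 of mESC nucleoplasm (1.13), and in cytoplasm Neurod1 rose by 1.63 ± 0.24 (adjusted p = 7.5e-07, edgeR). Neurod1 lies inside Cerkl, a ceramide kinase-like gene on the same strand, so the same reads can be counted for both. Cerkl had 600 counts more than Neurod1 in mESC chromatin, against 476 for Neurod1 itself, and 59 more in mCtx cytoplasm, against 1436. Reads of Cerkl within the Neurod1 interval could not be told apart from those of Neurod1.

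Eomes, a T-box factor of intermediate progenitors that also acts in early mesendoderm and trophoblast, had 4.12, 4.18 and 7.75 CPM in mESC cytoplasm and 7.85, 10.7 and 10.7 CPM in mCtx cytoplasm. The highest mESC library stayed just under the lowest mCtx library. Its log2 fold change between them was 0.86 ± 0.31 (adjusted p = 0.0140, edgeR), which missed the required fold, though not without replicate 3 of mESC cytoplasm (1.16). In nucleoplasm it was 0.68 ± 0.32 (adjusted p = 0.0549, edgeR), and was called without replicate 3 of mESC nucleoplasm (1.03). In chromatin Eomes was called higher in mCtx, by 1.88 ± 0.34 (adjusted p = 1.8e-05, edgeR), but not on log2(TPM + 1), where the difference was 0.75 (adjusted p = 1.6e-04, limma). In mNPC it had 5 to 14 counts per group, and was called lower than in mESC in each fraction, with log2 fold changes of -3.60 ± 0.55 in chromatin, -4.50 ± 0.54 in nucleoplasm and -4.33 ± 0.44 in cytoplasm. The mESC libraries also held markers of other lineages in which Eomes is known. Their 7 trophoblast markers summed to 106 to 175 CPM in cytoplasm, including Tfap2c at 80.5 CPM. Their 9 mesendoderm markers summed to 10.2 to 17.5 CPM, including Gata6 at 3.87 CPM and T at 0.50 CPM. Unlike Eomes, T was higher in mNPC than in mESC chromatin, at 8.91 against 2.10 CPM. Of the 5 mesendoderm markers tested there, 4 were called lower in mNPC. Whether cells of those lineages were present, and their part in the mESC level of Eomes, was not tested.

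Neurog2 was near 0 in stem cells and present in both the progenitor line and neurons. It had 137, 157 and 86 counts in mNPC chromatin, 62, 44 and 33 in nucleoplasm and 100, 62 and 34 in cytoplasm, while the 3 mESC groups held 0 to 3 counts each. Relative to mESC, Neurog2 was higher in mNPC chromatin by a ratio of 152 (counting interval 51.7 to 742) and at least 57.8-fold higher in mNPC cytoplasm. Its related proneural gene Neurog1 had at most 6 counts in any mESC group and at most 0.110 CPM as a mean in any group. Between mCtx and mNPC, Neurog2 differed by fraction. Its log2 fold change was -0.68 ± 0.27 in chromatin (adjusted p = 0.0292, edgeR) and -0.65 ± 0.29 in nucleoplasm (adjusted p = 0.0515, edgeR), neither of them called, although the nucleoplasm value was called without replicate 2 of mCtx nucleoplasm (-1.01). In cytoplasm Neurog2 was called higher in mCtx, by 1.01 ± 0.27 (adjusted p = 0.00227, edgeR), at the edge of the required fold. Without replicate 3 of mNPC cytoplasm, or replicate 2 or replicate 3 of mCtx cytoplasm, that value was 0.85, 0.97 or 0.97 and was no longer called.

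Bcl11a and Bcl11b were detected in all cell types and highest in neurons. Bcl11a had 135, 154 and 162 CPM in mCtx cytoplasm, 3.43, 4.08 and 4.78 CPM in mNPC cytoplasm and 0.368, 2.91 and 2.94 CPM in mESC cytoplasm. The low mESC value belonged to replicate 1, which was also the lowest of its group in chromatin (0.682 CPM against 3.38 and 5.19) and in nucleoplasm (0.436 CPM against 2.78 and 3.72). Bcl11a rose in mCtx over mNPC by 5.09 ± 0.48 in chromatin, 5.30 ± 0.50 in nucleoplasm and 5.18 ± 0.48 in cytoplasm on the log2 scale, and was not called between mNPC and mESC in any fraction.

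Bcl11b had 96.1, 102 and 126 CPM in mCtx cytoplasm, 4.63, 5.37 and 5.94 CPM in mNPC cytoplasm and 1.19, 2.27 and 2.80 CPM in mESC cytoplasm, with no overlap between the cell types. It rose in mCtx over mNPC by 4.34 ± 0.23 (adjusted p = 5.5e-15, edgeR). Between mNPC and mESC it was called higher in cytoplasm (1.38 ± 0.26, adjusted p = 3.9e-05, edgeR) and in nucleoplasm (1.28 ± 0.27, adjusted p = 1.5e-04, edgeR). The nucleoplasm value was 0.98, below the required fold, without replicate 3 of mESC nucleoplasm. In chromatin Bcl11b was not called, with -0.31 ± 0.25.

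Counted over the set, 8 of 9 genes were called in mCtx against mNPC in chromatin, all higher, where 44.8% of all genes tested were called in either direction. The count was 8 in nucleoplasm, against 46.7% of all genes, and 9 in cytoplasm, against 44.4%, again all higher. Against mESC, mCtx was called higher for 8 genes in chromatin (61.5% of all genes called), 7 in nucleoplasm (63.0%) and 8 in cytoplasm (67.9%). With genes at the floor set at their bound or counted ratio, the median log2 fold change of the 9 genes was 5.48, 7.21 and 6.93 against mNPC and 6.55, 7.21 and 6.83 against mESC in the order chromatin, nucleoplasm, cytoplasm. The median of all genes tested lay between -0.20 and 0.08 in those 6 comparisons. Since Neurod2, Neurod6, Fezf2 and Tbr1 passed the filter through mCtx alone, and Neurog2 without mESC, their calls were partly fixed by it, and nothing is read from these counts and medians against those of all genes.

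Between mNPC and mESC, 4 genes were called in each fraction, in both directions, where 57.2% of all genes were called in chromatin, 57.4% in nucleoplasm and 59.4% in cytoplasm. Neurod1 and Eomes were lower and Neurog2 higher in each fraction. Neurog2 passed the filter without mESC, so its calls here were partly fixed by it, and nothing is read from these counts against all genes. The fourth was Bcl11b in nucleoplasm and cytoplasm, and Fezf2 in chromatin, which rested on 3 counts against 0 and has no usable fold. That Fezf2 call was lost without any single mESC chromatin library and without replicate 1 or replicate 2 of mNPC chromatin. Comparisons that share a cell type share its libraries, so these counts are not independent of each other.

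**Figure D2:**
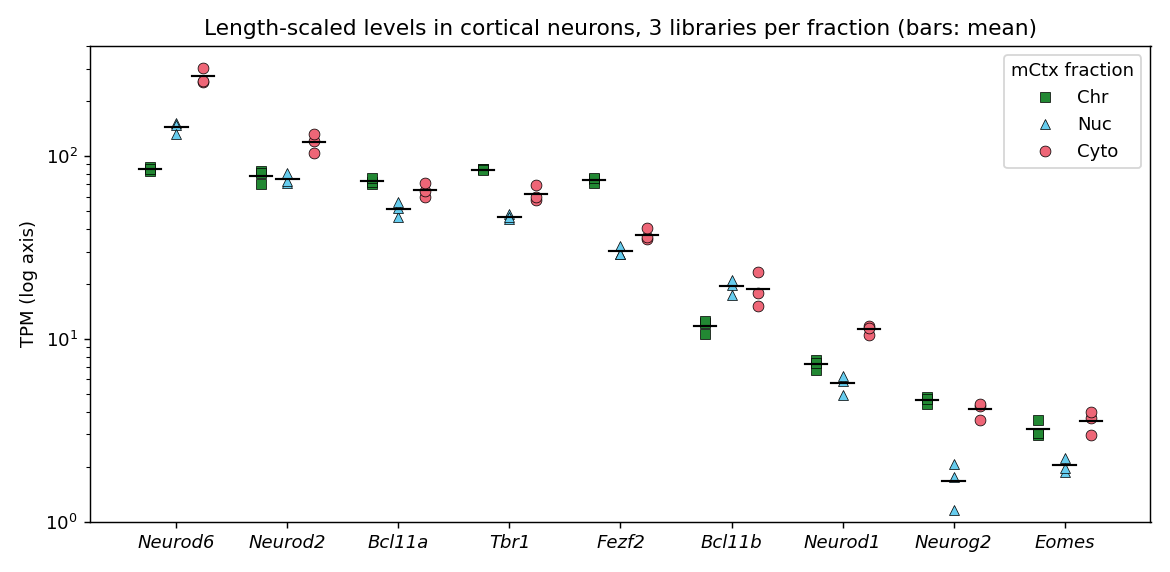
Length-scaled level in mCtx as TPM on a logarithmic axis, with squares for chromatin, triangles for nucleoplasm, circles for cytoplasm (3 libraries each) and bars at the means. Neurod6 leads in cytoplasm at 272 TPM, and Neurog2 and Eomes are lowest at 4.11 and 3.53 TPM.

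Within neurons the members spanned a wide range of levels per transcript length, as TPM. In mCtx cytoplasm Neurod6 stood at 272 ± 27.6 TPM (SD, n = 3) and Neurod2 at 119 ± 14.7 TPM. Bcl11a (65.3 ± 5.96 TPM) and Tbr1 (62.2 ± 5.98 TPM) overlapped each other, and Fezf2 (37.2 ± 2.68 TPM) and Bcl11b (18.7 ± 4.09 TPM) followed without overlap. Neurod1 was at 11.2 ± 0.61 TPM, and Neurog2 (4.11 ± 0.43 TPM) and Eomes (3.53 ± 0.51 TPM) overlapped at the bottom. The 3 genes known from progenitors and intermediate progenitors, Neurog2, Neurod1 and Eomes, were the lowest of the 9 in this fraction.

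In chromatin the upper part of this order was flat. Neurod6 (84.7 ± 2.19 TPM), Tbr1 (84.3 ± 0.71 TPM), Neurod2 (77.8 ± 6.81 TPM), Fezf2 (73.9 ± 2.22 TPM) and Bcl11a (72.6 ± 2.72 TPM) lay close together, and only Tbr1 and Neurod2 were separate among neighbours in that run. The place of Tbr1 in this order rests on a chromatin TPM that went against its counts, as given with the comparison of its TPM and counts. Within a library the ratio of Neurod6 to Neurod2 in TPM ran from 0.998 to 1.24 in chromatin, from 1.63 to 2.12 in nucleoplasm and from 1.94 to 2.94 in cytoplasm. For the ratio of Neurod6 to Neurod2, chromatin libraries did not overlap those of cytoplasm (exact two-sided permutation test, p = 0.1, the smallest that 3 against 3 libraries allow, and 0.136 after adjustment over 15 such comparisons). The ratio of Fezf2 to Tbr1 ran the other way, from 0.842 to 0.904 in chromatin and from 0.582 to 0.608 in cytoplasm, and the ratio of counts moved the same way. Bcl11b stood at 0.147 to 0.175 of Bcl11a in chromatin, 0.338 to 0.425 in nucleoplasm and 0.234 to 0.324 in cytoplasm.

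The fractions of neurons differed most for Neurod6. Its 3 libraries had 75.0, 76.0 and 76.5 CPM in chromatin, 233, 236 and 244 CPM in nucleoplasm and 424, 451 and 490 CPM in cytoplasm. The 3 fractions were far apart and their libraries did not overlap. Chromatin was lower than cytoplasm by a log2 fold change of -2.58 ± 0.14 (adjusted p = 2.7e-11, edgeR) and lower than nucleoplasm by -1.65 ± 0.13 (adjusted p = 2.0e-08, edgeR). Neurod1, Neurod2 and Tbr1 were also called lower in chromatin than in cytoplasm, with log2 fold changes of -1.40 ± 0.24 (adjusted p = 8.4e-06, edgeR), -1.39 ± 0.17 (adjusted p = 6.1e-07, edgeR) and -1.34 ± 0.21 (adjusted p = 2.6e-06, edgeR). On log2(TPM + 1), where the median of all genes was 0.59, these 3 were not called, with -0.57 for Neurod1, -0.60 for Neurod2 and the opposite sign, 0.43, for Tbr1, and Neurod6 (-1.67) was the single member called. By counts the 4 of 9 genes compare with 50.6% of all genes called in this contrast. The median of the 9 genes was -0.93 and that of all genes was 0, or 0.24 with library totals alone.

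The other 5 genes were not called between chromatin and cytoplasm in mCtx. Eomes (-0.93 ± 0.31), Bcl11b (-0.88 ± 0.20) and Neurog2 (-0.74 ± 0.27) had adjusted p of 0.00967, 3.1e-04 and 0.0179 with edgeR but missed the required fold. Eomes was called without replicate 1 of mCtx cytoplasm (-1.07) or replicate 3 of mCtx chromatin, and Bcl11b without replicate 2 of mCtx cytoplasm (-1.02). Fezf2 had 70.5, 70.9 and 73.7 CPM in chromatin and 57.9, 64.1 and 69.1 CPM in cytoplasm, so its libraries stood slightly higher in chromatin. Its log2 fold change was 0.17 ± 0.16, with a 95% interval of -0.16 to 0.51, while that of Neurod6 was -2.87 to -2.30. Bcl11a was at -0.19 ± 0.38, and the upper end of its 95% interval was 0.62.

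In nucleoplasm against cytoplasm 1 of 9 genes was called in mCtx, where 21.3% of all genes were. It was Neurog2, with 1.66, 3.00 and 3.34 CPM in nucleoplasm and 6.01, 7.39 and 7.45 CPM in cytoplasm, which gave -1.38 ± 0.28 on the log2 scale (adjusted p = 2.5e-04, edgeR). In chromatin against nucleoplasm Neurod6 alone was called, where 33.4% of all genes were. Bcl11b was close to the required fold there (-0.94 ± 0.20, adjusted p = 2.4e-04, edgeR), with 56.4, 56.4 and 63.2 CPM in chromatin and 100, 112 and 124 CPM in nucleoplasm, and it was called without replicate 2 of nucleoplasm (-1.03). Fezf2 pointed the other way, at 0.47 ± 0.16 (adjusted p = 0.0159, edgeR), and was not called. On log2(TPM + 1) the calls differed. Neurog2 (1.10, adjusted p = 5.4e-07, limma) and Fezf2 (1.27, adjusted p = 4.7e-11, limma) were called higher in chromatin, and Neurod6 (-0.75) was not called. Neurog2 in nucleoplasm against cytoplasm was at -0.95 on that scale, under the required fold.

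**Figure D3:**
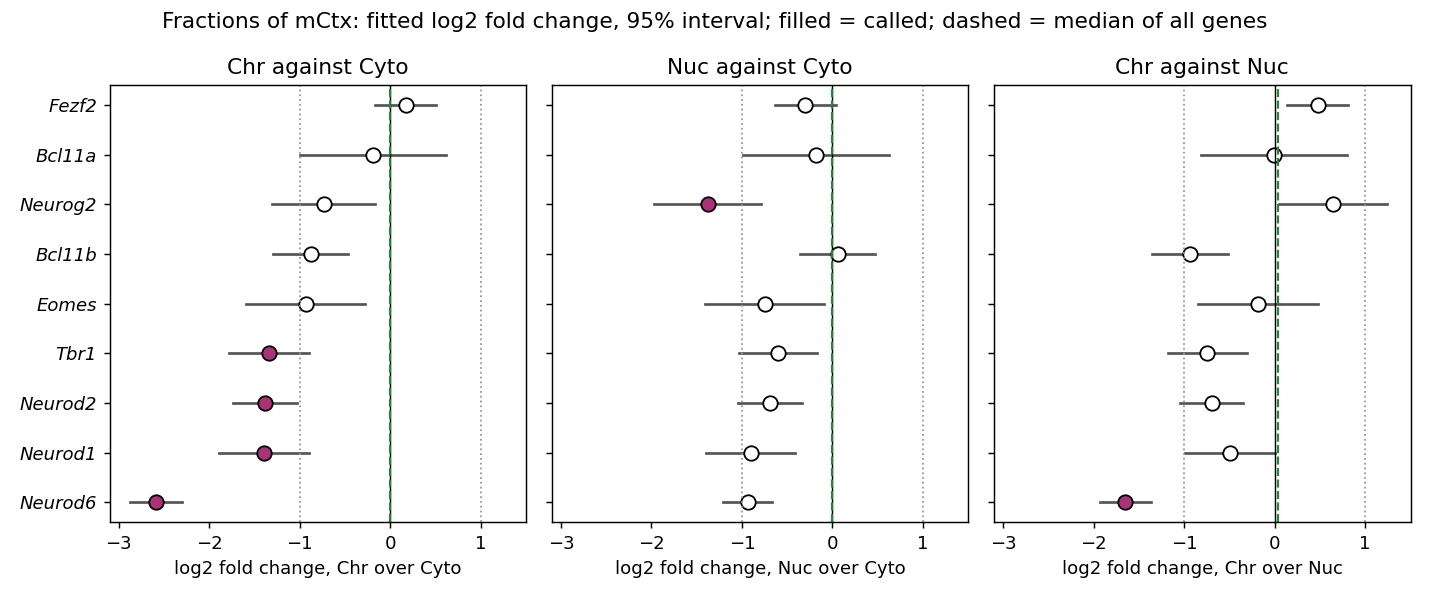
Fitted log2 fold change (points) with 95% intervals (lines) of the 9 genes between fractions of mCtx. Filled points are called, dotted lines mark the required fold and the dashed line is the median of all genes. In chromatin against cytoplasm Neurod6 lies at -2.58 and Fezf2 at 0.17.

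Outside neurons few members had enough counts for a comparison of fractions. In mESC, 1 gene was called in chromatin against cytoplasm (56.0% of all genes called), 0 in nucleoplasm against cytoplasm (36.5%) and 1 in chromatin against nucleoplasm (33.4%). The gene was Eomes both times. It had 0.925, 1.06 and 2.15 CPM in mESC chromatin, 2.62, 3.05 and 5.17 CPM in nucleoplasm and 4.12, 4.18 and 7.75 CPM in cytoplasm, and chromatin was below the other 2 fractions without overlap. Its log2 fold change in chromatin was -1.95 ± 0.34 against cytoplasm (adjusted p = 1.4e-05, edgeR) and -1.38 ± 0.35 against nucleoplasm (adjusted p = 0.00131, edgeR). Neither was called on log2(TPM + 1), at -0.18 (adjusted p = 0.308, limma) and 0.05 (adjusted p = 0.817, limma), the second with the opposite sign. The median of all genes in chromatin against cytoplasm was 0.37 in mESC with the scaling used and 0.88 with library totals alone.

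In mNPC, 0 genes were called in chromatin against cytoplasm (48.9% of all genes called), 0 in nucleoplasm against cytoplasm (25.0%) and 1 in chromatin against nucleoplasm (44.4%). The single gene was Neurod1, on 18 counts against 3, a ratio of 3.50 with a counting interval of 1.02 to 18.6 (adjusted p = 0.0478, edgeR). That call was lost with RLE size factors, either other filter or DESeq2, and without replicate 1 or replicate 2 of chromatin or replicate 1 or replicate 3 of nucleoplasm, where the adjusted p was 0.0924, 0.155, 0.253 or 0.302. Neurog2 and Bcl11b, which together with Bcl11a had the most counts in mNPC, leaned in opposite directions between chromatin and cytoplasm. Their values were 0.95 ± 0.27 and -0.79 ± 0.25 on the log2 scale (adjusted p = 0.00343 and 0.00609, edgeR), and both missed the required fold. On log2(TPM + 1) Neurog2 was called higher in chromatin (1.70, adjusted p = 4.0e-10, limma), while Bcl11b was at 0.02 (adjusted p = 0.949, limma). Beside the counts of 0, the number of genes at an unadjusted p under 0.05 (edgeR) was 2 in mNPC chromatin against cytoplasm, namely these, and 0 for nucleoplasm against cytoplasm in both mNPC and mESC, and DESeq2 called 0 in all 3. Neurog2 was called without replicate 1 of mNPC cytoplasm (1.16) or replicate 3 of mNPC chromatin (1.05).

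The balance between chromatin and cytoplasm itself differed between cell types for some members. For mCtx minus mNPC, 3 genes were called, all lower, where 19.0% of all genes were called. Neurog2 gave the firmest of them. In mNPC its chromatin level was 6.68 ± 0.83 CPM and its cytoplasmic level 3.42 ± 0.89 CPM, while in mCtx they were 4.17 ± 0.20 and 6.95 ± 0.82 CPM. By scaled counts its share of the fraction's RNA was thus higher in chromatin in progenitors and in cytoplasm in neurons. The difference of log2 fold changes was -1.69 ± 0.38 (adjusted p = 0.00144, edgeR). On log2(TPM + 1) the difference was also called, at -1.55 (adjusted p = 2.6e-06, limma), but within neurons chromatin was the slightly higher fraction, by 0.15. The others were Neurod1 (-2.04 ± 0.60, adjusted p = 0.0106, edgeR) and Tbr1 (-2.91 ± 0.88, adjusted p = 0.0127, edgeR), which rest on 18 and 11 counts and on 13 and 4 counts in mNPC. Without replicate 2 of mNPC chromatin neither was called (adjusted p = 0.0734 and 0.0932, edgeR), nor was Tbr1 without replicate 1 of mNPC cytoplasm (adjusted p = 0.0525). On log2(TPM + 1) Neurod1 was not called (-0.76, adjusted p = 0.0157, limma). Tbr1 was called on that scale (-4.71, adjusted p = 2.7e-10, limma), with an mNPC chromatin TPM that its counts did not match.

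For Bcl11b the balance by counts differed between stem cells and both other cell types. It had 3.40, 3.47 and 4.63 CPM in mESC chromatin and 1.19, 2.27 and 2.80 CPM in mESC cytoplasm, while in mNPC and mCtx chromatin was below cytoplasm. The difference was -1.68 ± 0.36 for mNPC minus mESC (adjusted p = 4.7e-04, edgeR), the single gene called there (28.0% of all genes), and -1.78 ± 0.33 for mCtx minus mESC (adjusted p = 5.9e-05, edgeR). In that last comparison 3 genes were called, all lower, against 40.6% of all genes. On log2(TPM + 1) neither Bcl11b difference was called, at -0.31 (adjusted p = 0.308, limma) for mNPC minus mESC and -0.94 (adjusted p = 0.00243, limma) for mCtx minus mESC. The other 2 were Neurod1 (-1.16 ± 0.34, adjusted p = 0.00510, edgeR) and Tbr1 (-2.59 ± 0.88, adjusted p = 0.0146, edgeR), whose mESC value rests on 14 and 4 counts. Without replicate 2 of mESC chromatin both were lost, at -0.98 for Neurod1 and -1.12 for Tbr1, and Neurod1 was at -0.94 without replicate 3 of mESC cytoplasm. On log2(TPM + 1) neither was called, at -0.87 for Neurod1 (adjusted p = 0.00413, limma) and -0.41 for Tbr1 (adjusted p = 0.266, limma). In mESC, the overlapping Cerkl had 600 counts more than Neurod1 in chromatin and 57 more in cytoplasm. The part of Cerkl reads in the Neurod1 difference was not tested. Eomes stood at 1.02 ± 0.46 (adjusted p = 0.0653, edgeR) and was called with the replicate number as a block, at 1.03 (adjusted p = 0.00148). It was also called without replicate 1 or 2 of mESC cytoplasm (1.10 and 1.14) or replicate 3 of mESC chromatin (1.49).

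**Figure D4:**
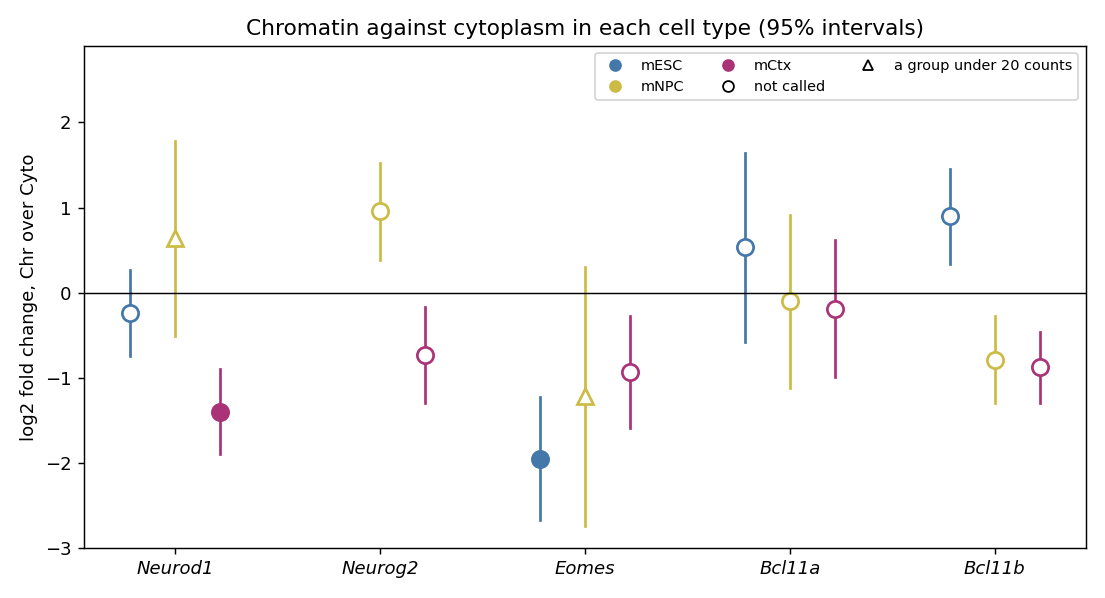
Log2 fold change of chromatin over cytoplasm with 95% intervals for Neurod1, Neurog2, Eomes, Bcl11a and Bcl11b, leaving out groups of 3 or fewer counts. Triangles mark a group under 20 counts and filled symbols are called. Neurog2 lies at 0.95 in mNPC and -0.74 in mCtx, and Bcl11b at 0.90 in mESC, -0.79 in mNPC and -0.88 in mCtx.

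Tbr1 gave different pictures in the deposited tables. In mNPC chromatin it was at 55.8, 70.2 and 85.6 TPM, close to the 83.5 to 84.8 TPM of mCtx chromatin, but had 2, 7 and 4 read counts there against 1391 to 1569 in mCtx. The TPM in mNPC was 2.03 to 5.11 in nucleoplasm and 0.770 to 1.40 in cytoplasm, so the high values were in chromatin. Of the 4 Tbr1 transcripts in GENCODE M21, the processed transcript Tbr1-203 (796 nt) shares 28 of its 766 words of 31 bases with transcripts of 2712 other genes, and the other 3 share 0. Sharing is not particular to Tbr1, as Neurod2-201 shares 21 words with 2733 other genes, Neurod6-201 18 with 1062 and Bcl11a-202 180 with 1063. In mNPC chromatin Neurod2, Neurod6 and Bcl11a had means of 0.06, 0.18 and 1.42 TPM. The authors' transcript set is not given in the sources used here, and the part of shared sequence in the TPM value was not tested. In mCtx the TPM of Tbr1 was higher in chromatin than in cytoplasm (84.3 against 62.2), opposite to the counts, and the difference of log2(TPM + 1) was 0.43 (adjusted p = 0.0831, limma). On that scale the median of all genes was 0.59. Neurod6 was called lower in chromatin on both scales.

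**Figure D5:**
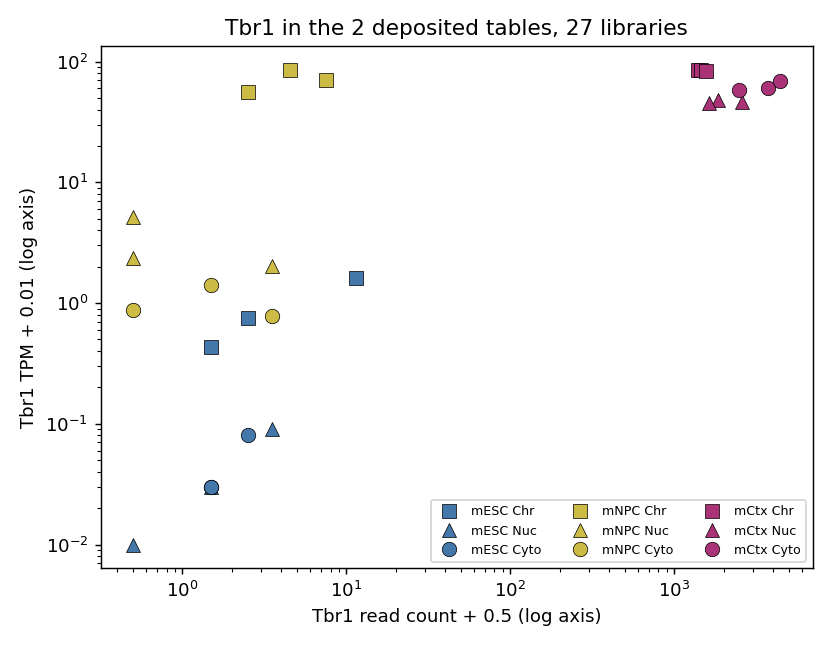
Read count of Tbr1 (plus 0.5, log axis) against its TPM (plus 0.01, log axis) in 27 libraries, coloured by cell type and shaped by fraction. The 3 mNPC chromatin libraries have 2 to 7 counts and 55.8 to 85.6 TPM.

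Lists of related genes are given beside the same shares of all genes, 44.4% called in mCtx against mNPC cytoplasm and 50.6% called in chromatin against cytoplasm of mCtx. Of 15 tested genes among 16 bHLH partners, regulators and relatives, 4 were called higher and 6 lower in mCtx than in mNPC cytoplasm, with a median of -0.83 against 0 over all genes. Tcf4, an E protein and dimer partner of the bHLH members, was at 341 CPM in mCtx and 325 CPM in mNPC cytoplasm and was not called (0.07 ± 0.15), while the E protein Tcf12 fell by 2.53 ± 0.20 on the log2 scale (adjusted p = 1.9e-11, edgeR). Neurod4, a bHLH relative, was lower in mCtx by -1.98 ± 0.72 (adjusted p = 0.0181, edgeR) at levels below 1 CPM. In chromatin against cytoplasm of mCtx, 9 of these 15 were called lower and 0 higher, with a median of -1.54.

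Of 27 other cortical transcription factors, 12 were called higher and 4 lower in mCtx than in mNPC cytoplasm, with a median of 0.85. Zbtb18, a zinc finger repressor, rose by 2.45 ± 0.18 (adjusted p = 2.7e-12, edgeR) and Pax6, the progenitor factor upstream of Neurog2, fell by 1.84 ± 0.24 (adjusted p = 1.6e-07, edgeR). In chromatin against cytoplasm of mCtx, 4 of the 27 were called higher and 10 lower, with a median of -0.68. Zbtb18 was among those lower (-1.69 ± 0.17), and Nfib (-0.37 ± 0.34) was not called.

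Of 19 BAF complex subunits other than Bcl11a and Bcl11b, 4 were called higher and 4 lower in mCtx than in mNPC cytoplasm, with a median of -0.02. Actl6a and Actl6b are the subunit pair known to exchange as neurons form. Actl6a went from 81.7 CPM in mNPC cytoplasm to 30.7 CPM in mCtx cytoplasm (-1.41 ± 0.19, adjusted p = 2.6e-07, edgeR), and Actl6b from 0.582 to 205 CPM (8.34 ± 0.26, adjusted p = 1.8e-19, edgeR). Smarca4, the ATPase, was at 285 and 273 CPM and was not called.

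Across the 27 libraries, the genes whose log2 CPM followed the members most closely are given as a description, since cell type sets most of the pattern. Of 13866 genes with a mean of at least 1 CPM, those closest to Neurod2 were Kcnk9 (Pearson's r = 0.999), a potassium channel gene, and Sla (0.998), which were also the closest to Neurod6 (0.998 and 0.997). Tbr1 was closest to Gpr26 (0.991) and Kcnk9 (0.991), Fezf2 to Gzmk (0.997) and Lgi1 (0.996), and Bcl11b to Phactr1 (0.990) and Gnao1 (0.985). Bcl11a was closest to Dpf1 (0.971), a neuronal BAF subunit, and Ica1l (0.971). Neurog2 was closest to Skida1 (0.988) and to Pou3f2 (0.985), an upper-layer POU factor. Eomes was closest to Fam131c (0.979) and Cpne5 (0.964), and Neurod1 to Cerkl (0.987), with which it shares reads, and Stmn2 (0.979). Above 0.95 lay 249 genes for Neurod2, 236 for Neurod6 and 243 for Fezf2, against 35 for Neurod1 and 11 for Eomes. With Spearman's rank correlation the closest gene was unchanged for 3 members, Neurod2, Bcl11b and Fezf2.

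Over the 9 mCtx libraries alone, where fraction sets the pattern, the closest genes were mostly others, with Cerkl again closest to Neurod1. They were Smim13 and Rab11a for Neurod6, Zfp580 and Tsku for Neurod2, Abhd2 and Tmem164 for Tbr1, Cerkl and Cdkn1b for Neurod1, Flrt1 and Tpbg for Bcl11b and Egln2 and Nsmf for Eomes, each with r of at least 0.985. For Neurod6, 2351 genes lay above 0.95. Bcl11a, with little difference between fractions, had 1 gene above 0.95, Abi3 (0.970), and Fezf2 had 14, led by Atpaf2 (0.973) and Zfp672 (0.972). Neurog2 was closest to Ccdc167 (0.983) and Nab2 (0.978).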

How the data were processed

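The first deposited table holds read counts per gene, per the file headers, for 27 libraries. Its 9 chromatin columns were deposited as whole numbers, entered as other values because their headers contain Chr, and were analysed as counts. The second deposited table holds TPM per gene, per the file headers. The tools that the submitters' processing notes name are kallisto 0.43.0, featureCounts and STAR, on mouse build mm10. Options, strand setting, annotation release and transcript set: not given in the sources used here. Gene length equals the span from start to end in all 37332 rows, so introns lie inside the counted region. Replicates are described as biological, without saying whether cultures were separate, so p-values measure the spread between these samples.

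Gene symbols came from GENCODE M21 by Ensembl identifier (35449 of 37332 and 53274 of 53379 genes). The test of counts was that of edgeR 4.0.16 (R 4.3.3). Genes kept by filterByExpr on the 9 groups (18226) were scaled by TMM and fitted together with a mean per group, with 21 contrasts, a quasi-likelihood F-test and Benjamini-Hochberg adjustment over all genes tested. SE is the log2 fold change divided by the square root of F. The script was first tested on simulated data. TPM was tested with limma 3.58.1 on log2(TPM + 1), over genes with at least 1 TPM in 3 libraries. Folds against 0 counts use a floor of 3 counts over the group. Counting intervals are 95% and cover counting error only. Upstream sequences are RefSeq's (GRCm38.p6).

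The members and the gene lists were chosen with earlier results of these data known. Besides the 9 members, the genes open to naming were the 2 of highest mean CPM in each list and 15 set relatives and class markers, of which the text names those a result turns on and leaves out the rest. The 2 genes of highest Pearson correlation with each member, over 27 and over 9 mCtx libraries, were taken as well. Cerkl was named for its overlap, and Emx1 as the only gene of its list without counts in mNPC. Of 9 pairings of same-numbered mESC fractions, all deviations correlated (0.36 to 0.75), as did those of mCtx chromatin and cytoplasm (0.14 to 0.20). The main tests and the permutation test of ratios did not use such pairs, and a replicate block was run as an alternative. Pairs within mNPC, other mCtx pairs and pairs between cell types did not all exceed 0.1. Alternatives were RLE size factors, library totals, 2 other filters, DESeq2 1.42.0, the libraries compared alone, a replicate block, no required fold, no mitochondrial genes, TPM with pseudocounts of 1 and 0.1, and leaving out each library.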

Additional observations from a re-analysis of the deposited data

Results flagged for a closer look

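The 7 differences listed here are those between cell types in the chromatin-to-cytoplasm log2 fold change that passed the test of the difference itself (edgeR, adjusted over all genes tested). For mNPC minus mESC it was Bcl11b, at -1.68, where the mean level in mESC was 3.83 CPM (chromatin) and 2.09 CPM (cytoplasm), and in mNPC 3.06 and 5.31 CPM. For mCtx minus mNPC they were Neurog2 at -1.69, Neurod1 at -2.04 and Tbr1 at -2.91. For mCtx minus mESC they were Bcl11b at -1.78, Neurod1 at -1.16 and Tbr1 at -2.59. The Tbr1 values and the mNPC value of Neurod1 rest on 4 to 18 counts per group. Neurod1 can share reads with Cerkl, and the part of Cerkl in its differences was not tested. On log2(TPM + 1) only Neurog2 (-1.55) and Tbr1 (-4.71) for mCtx minus mNPC were also called. That Tbr1 value rests on an mNPC chromatin TPM that its counts did not match.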

How the results depend on the processing

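In the 9 comparisons of cell types the count of members called stayed within 1.5 times under every alternative that could be run. Comparisons of fractions rest on few calls and moved more. With library totals alone the count was 2 for mESC chromatin against cytoplasm, for mESC and mNPC chromatin against nucleoplasm and for mCtx nucleoplasm against cytoplasm, and 1 for mNPC chromatin against cytoplasm. For mESC chromatin against nucleoplasm it was 2 with RLE, without a filter and with DESeq2. For mNPC chromatin against nucleoplasm it was 0 with RLE, either other filter, DESeq2, no mitochondrial genes or the compared libraries alone. With no required fold, the counts in the order chromatin-cytoplasm, nucleoplasm-cytoplasm, chromatin-nucleoplasm became 7, 5 and 5 in mCtx, 2, 0 and 2 in mESC, and 2, 0 and 3 in mNPC.

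On log2(TPM + 1) the counts became 0 for mESC chromatin against cytoplasm and against nucleoplasm, 2 for both mNPC chromatin comparisons, 1, 0 and 2 for the 3 mCtx comparisons, 2 for the mNPC minus mESC difference and 1 for mCtx minus mESC. On log2(TPM + 0.1) they were 3, 1 and 4 in mNPC, 1 and 2 for mCtx chromatin against cytoplasm and nucleoplasm, 2 for mNPC minus mESC and 5 for each mCtx difference. Among values called on either scale, sign changes occurred on these TPM scales and under no other alternative run. They were Eomes in mESC chromatin against nucleoplasm (0.0484 and 0.0778), Tbr1 in mCtx chromatin against cytoplasm (0.43 and 0.44), Tbr1 in mNPC against mESC cytoplasm (3.00), Neurod6 in mNPC chromatin against cytoplasm (1.32) and nucleoplasm (1.45), and Neurog2 in the mNPC minus mESC difference (1.64 and 1.60). The cause was not tested. Members called on neither scale also changed sign on TPM, for example Neurog2 in mCtx chromatin against cytoplasm (0.15).

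With libraries left out, counts ranged from 1 to 2 and 1 to 3 for mESC chromatin against cytoplasm and nucleoplasm, from 0 to 1 for both mNPC chromatin comparisons, from 1 to 2 for mCtx chromatin against nucleoplasm, from 1 to 3 for mCtx minus mNPC and from 1 to 4 for mCtx minus mESC. For mCtx chromatin against cytoplasm they ranged from 4 to 5. With the replicate number as a block the counts were the same as without it, for example 4 for mCtx chromatin against cytoplasm, except 4 in place of 3 for mCtx minus mESC, where Eomes was added. Depth limits the mESC and mNPC values of Neurod2, Neurod6, Fezf2 and Tbr1 to 14 counts or fewer per group.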
